A study of Drosophila melanogaster with 36 samples.

Results

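The transcripts described here are 200 of the 16637 measured in adult *Drosophila melanogaster* and were selected on their sex difference, as transcripts with a strong female bias in expression. For each transcript the median log2 intensity over 18 female arrays was set against the median over 18 male arrays. Transcripts were ranked by the excess in females, and those at ranks 51 to 250 were kept. Since this difference chose the transcripts, it is given as a description and was not tested. The strains were not used in the choice, and the comparisons between strains were tested.

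Each array measured RNA from 50 whole virgin flies of one sex, aged 5 to 7 days, in a *w1118* background, and 3 arrays lettered A to C were made from separate samples of each of 6 strains in each sex, 36 arrays in all. INV2 and INV1 carry an induced inversion that disrupts the ultraconserved region between the genes *CG15121* and *CG16894*, and they have red eyes. REC carries both of the P-elements used to induce the inversion, on a chromosome in which the region is intact, and has red eyes. In REV2 and REV1 the inversion was reverted, so that the region is intact again, and the eyes are white. SIM1 went through the same heat shocks that activate the flippase without acquiring the inversion and has white eyes. REV2, REV1 and SIM1 are together called white-eyed below. Each of these strains is a separately derived line, which limits what a difference between 2 strains can be assigned to.

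In adult fruit flies most of the difference in RNA between the sexes comes from the reproductive organs. In the ovary, nurse cells of the germ line make messenger RNAs and proteins that are loaded into the oocyte for the first divisions of the embryo, and follicle cells around them secrete the layers of the eggshell. A virgin female stores mature eggs, so whole-fly RNA from such females holds both the RNAs of growing egg chambers and those laid down in the egg. In whole flies, fewer cells of a type and less RNA per cell cannot be told apart. The deposited table names transcripts by FlyBase identifier only. Of the 200 transcripts 1 (0.5%) could be paired with a gene, and the others are given by identifier with no role.

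On the log2 scale of the deposited intensities, the 200 transcripts had a median level of 12.70 in females (quartiles 12.18 and 13.22) and 9.31 in males (8.74 and 9.80). The median of all transcripts was 10.39 in females and 10.95 in males. In other words, the median of the selected transcripts lay above the middle of the array in females and below it in males. Not every one of the 200 lay below it in males, where the highest level was 11.51. For 139 of the 200 the female level fell in the highest 25% of all transcripts, and for 121 the male level fell in the lowest 25%. The 200 thus differed in whether the female level, the male level or both were far from the bulk. Intensity depends on the probes of a transcript, so these places on the array do not rank transcripts by abundance.

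**Figure D1:**
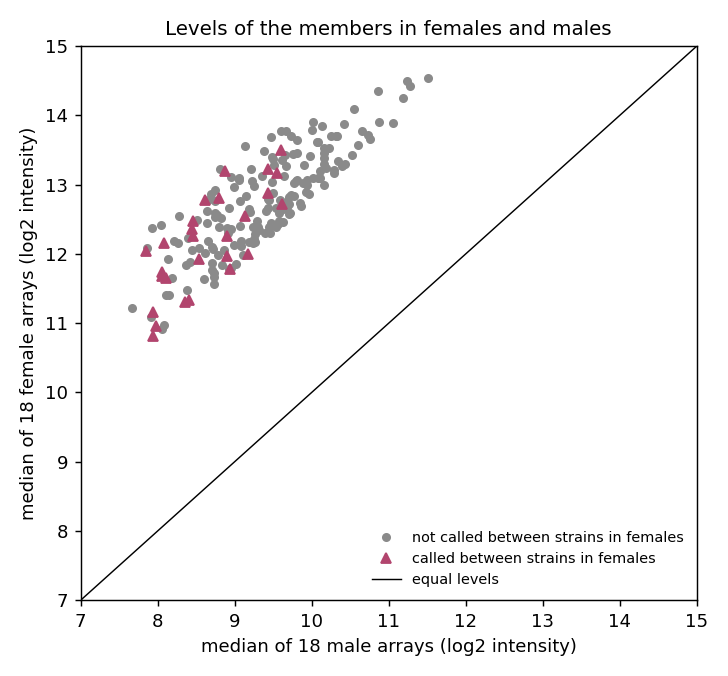
Level of each of the 200 transcripts, with the median log2 intensity of 18 female arrays on the vertical axis and of 18 male arrays on the horizontal axis. Triangles mark the 27 transcripts called between strains in females, circles the others, and the line marks equal levels. Every point lies above the line by at least 2.83, as the selection requires.

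The female minus male difference lay between 2.83 and 4.44, with a median of 3.32, which corresponds to between 7.10-fold and 21.8-fold higher in females with a median of 9.96-fold. No gap in the ranking marks either end of the selection. The last transcript inside the upper end, FBtr0070485, differed by 4.44 and the one just outside, FBtr0076572, by 4.45. At the lower end FBtr0073905 differed by 2.83 and FBtr0086306, just outside, by 2.82. The 50 transcripts ranked above had differences of 4.45 to 6.60 (median 5.09), and the 200 ranked below had differences of 2.40 to 2.82 (median 2.58). The size of the difference depended on the scale of the 2 sexes. Its median was 3.92 after scale normalization and 3.77 after quantile normalization over all arrays, and these also moved the median difference of all transcripts to 0.12 and 0.21, against -0.37 in the deposited values.

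Among the 200, FBtr0089342 had the brightest female level. Its 18 female arrays lay between 14.38 and 14.70 with a median of 14.54, and the male arrays between 10.26 and 12.58 with a median of 11.51. The groups did not overlap. The highest male array was REV1 A, whereas INV1 A, INV1 B, REC B and SIM1 C formed the low end in males, at 10.74, 10.60, 10.69 and 10.26. The next brightest, FBtr0087387, measured between 14.27 and 14.78 (median 14.50) in females and between 10.73 and 12.51 (median 11.24) in males, with REV1 A again highest. The dimmest were FBtr0074596, between 10.54 and 11.20 in females and between 7.66 and 8.49 in males, and FBtr0082864, between 10.80 and 11.11 in females and between 7.72 and 8.80 in males. Even these had no female array near the males.

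The transcript with a gene name, FBtr0077747 at rank 244, is listed in the gene table under both *Sws1* and *Rad1*. Its level is therefore not assigned to either gene alone. *Rad1* encodes a subunit of the ring-shaped clamp that is loaded at damaged DNA and activates the checkpoint. The 18 female arrays lay between 11.36 and 12.01 with a median of 11.79, and the 18 male arrays between 8.40 and 9.48 with a median of 8.95. The strain means in females were 11.80 ± 0.19 in INV2, 11.68 ± 0.30 in INV1, 11.74 ± 0.16 in REC, 11.94 ± 0.05 in REV2, 11.68 ± 0.18 in REV1 and 11.77 ± 0.27 in SIM1 (SD, n = 3 each). In males they were 8.79 ± 0.09 in INV2, 9.15 ± 0.27 in INV1, 9.06 ± 0.37 in REC, 8.62 ± 0.28 in REV2, 9.23 ± 0.22 in REV1 and 8.92 ± 0.04 in SIM1 (SD, n = 3 each). The strain means lay close together in females, whereas in males the REV2 arrays lay below those of INV1 and REV1. No male array reached a female one. The medians of the sexes differed by 2.84, or 7.16-fold. The strains did not pass the F-test in females (limma adjusted p = 0.653) or males (0.251), and the sex difference did not pass the test of dependence on strain (0.102).

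One male array stood apart from the others in these transcripts. The median over the 200 transcripts lay between 12.63 and 12.77 on the 18 female arrays, between 9.22 and 9.38 on 17 male arrays, and at 10.15 on replicate A of REV1 males. Relative to the median of the other 17 male arrays, the 200 transcripts were higher on REV1 A by between 0.04 and 4.62, with a median of 0.82. It was the highest male array for 167 of the 200 (83.5%) and for 6.9% of all transcripts, and the lowest for 0 of the 200. No other male array was the highest for more than 12. In the 50 transcripts ranked above, the median excess on REV1 A was 2.63, and in the 200 ranked below it was 0.44. In the 200 most male-biased transcripts it was -0.02, with REV1 A highest in 1 and lowest in 1. Female-biased transcripts were thus raised on this array while strongly male-biased ones were not lowered. What produced this was not tested.

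**Figure D2:**
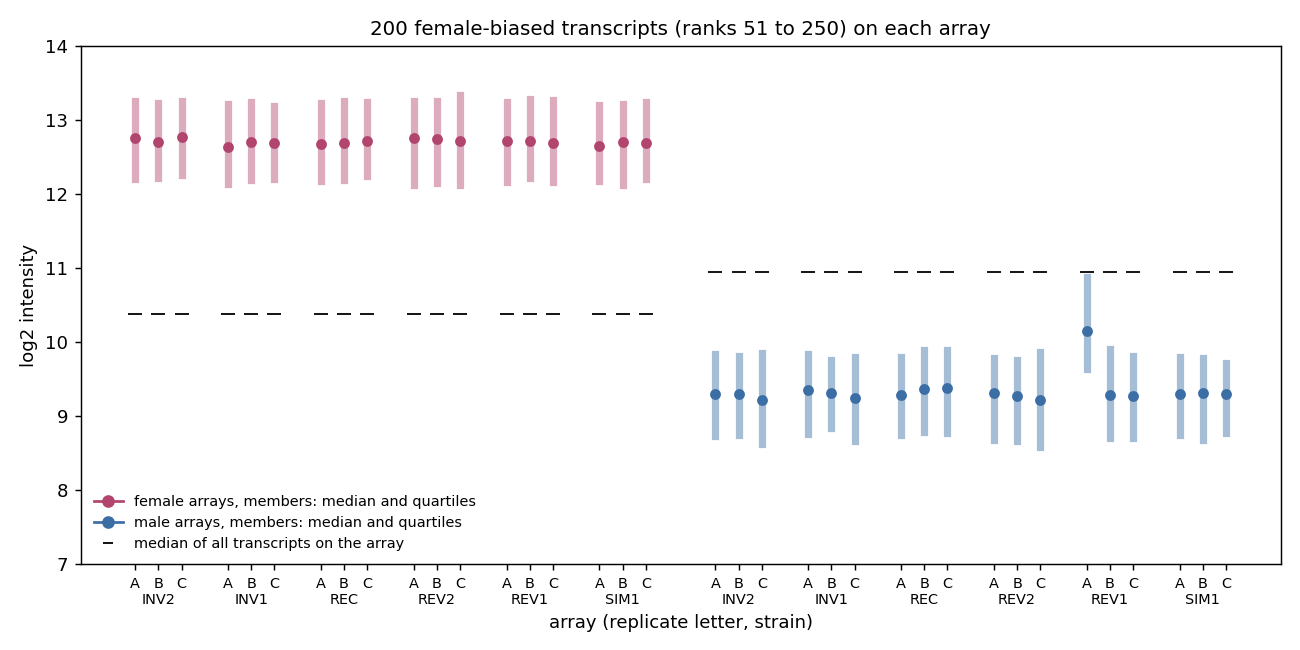
The 200 transcripts on each array, on the log2 scale of the deposited intensities, with female arrays on the left, male arrays on the right and the strains in one order within each sex. Points are the median over the transcripts, thick bars the quartiles, and short lines the median of all transcripts on that array. Female medians lie between 12.63 and 12.77, and REV1 A, at 10.15, is the male array above the range of 9.22 to 9.38 of the other 17.

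The size of the excess was expressed as a percentage of the distance in intensity between the median of the other males and the median of the females, on the linear scale. It had a median of 7.87% and quartiles of 6.70% and 10.6%, and 161 of the 200 transcripts lay between 5% and 15%. Most transcripts thus showed a similar small part of the female level on REV1 A. In the 50 ranked above the median was 14.7%, and in the 200 ranked below it was 6.91%. Over all transcripts the median was 7.57%, with wider quartiles of -3.84% and 21.7%. The percentage is unstable there, because the distance between the sexes is small for many transcripts. Among the 200, a minority exceeded 15% by far, with 14 above 25%. FBtr0273329 measured 13.21 on REV1 A, against a median of 8.59 on the other males, which was 136% of the distance. FBtr0072883 measured 11.49 against 7.94 (129%) and FBtr0070645 12.94 against 9.61 (119%). These levels lay within the range of the female arrays. At the low end were FBtr0073715, at 8.93 against 8.89 (0.27%), and FBtr0076571, at 9.83 against 9.42 (2.54%). FBtr0073715 was hardly raised. In FBtr0076571 the percentage was small, but REV1 A was still the highest male array, with the next at 9.58.

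All 18 female arrays lay above all 18 male arrays for 195 of the 200 transcripts, where the background over all transcripts was 24.3%. Since the same difference was used for the selection, nothing is read from it. In the remaining 5 transcripts the array above the lowest female was REV1 A, and against the other 17 males the separation held for 200 of 200. The strain medians of the female minus male difference were 3.38 in INV2 (range over the transcripts 2.15 to 4.71), 3.33 in INV1 (2.30 to 4.60), 3.22 in REC (2.22 to 4.94), 3.38 in REV2 (2.04 to 4.69), 3.06 in REV1 (0.82 to 3.97) and 3.31 in SIM1 (2.52 to 4.72). The lower value in REV1 rested on REV1 A, without which its median was 3.32. Apart from that array, the medians of the 6 strains were nearly equal.

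Whether the 6 strains differed in females was tested for every transcript with the moderated F-test of limma, and a transcript was called at an FDR (Benjamini-Hochberg adjusted p over all 16637) under 0.01. Of the 200 transcripts 27 were called (13.5%), against a background of 10.1% of all transcripts. At an unadjusted p under 0.05 the counts were 97 of 200 (48.5%) and 39% of all. Adjusted p of the called transcripts ran from 4.86e-05 to 0.00992. Among the 50 ranked above 10 were called (20%), and among the 200 ranked below 17 (8.5%). The share is not far from the background, and nothing particular to the 200 is read from it. The spread between arrays of a strain in females (median residual SD 0.109) was that of all transcripts (0.109).

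The size of the strain differences is given as a description, since the F-test itself selects on it and a larger size in the called transcripts follows from the call. The difference between the highest and the lowest strain mean had a median of 1.27 in the 27 called (0.29 to 2.53), against 0.25 in those not called and 0.25 over all transcripts. A difference above 1 was found in 17 of the 200 (8.5%), against 1.39% of all transcripts, and 16 of these were called. It was found in 4 of the 50 ranked above (8%) and 3 of the 200 ranked below (1.5%). REC was the highest strain in 17 of the 27 and the lowest in 5. Over all 200 the order was another one, since REC was the lowest strain in 75 (22.8% of all transcripts) and the highest in 25 (17.3% of all). INV2, REV2 and REV1 were the highest in 47, 48 and 46, against 19.4%, 17.4% and 17.1% of all transcripts. INV1 was the highest in 10 (14.6% of all) and SIM1 in 24 (14.1%).

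REC minus the white-eyed mean had the most calls in females, among contrasts that share arrays with each other. REC was higher in 19 of the 200, with 2.67% of all transcripts called in this direction, and lower in 3, against 1.02%. The 19 differed by 0.41 to 1.70 with a median of 0.99, and 9 exceeded 2-fold. The 3 lower ones differed by 0.23 to 0.34. Over the 200, 155 differences were below 0 (77.5%, against 54.7% of all transcripts), and the median over the 200 was -0.09, against -0.01 over all. In the 50 ranked above 56% were below 0, and in the 200 ranked below 79.5%, so this is not particular to the 200. Without REC A or REC B 10 of the 200 were called and without REC C 14, all of them higher in REC. The 3 lower calls were thus lost whenever a REC array was left out. The share of all transcripts is not given for these settings, so nothing particular to the 200 is read from these counts.

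FBtr0076196, at rank 91, had the largest of these differences. It measured 13.75, 13.70 and 13.32 in REC females, against 10.76, 11.35 and 11.06 in REV2, 12.28, 11.65 and 11.26 in REV1 and 13.19, 13.20 and 12.25 in SIM1. INV2 measured 11.46, 12.16 and 11.96, and INV1 13.19, 13.09 and 13.18. Each REC array lay above every white-eyed array, and INV1 and SIM1 lay closer to REC than INV2 and the REV strains did. The difference of REC from the white-eyed strains was 1.70 (SE 0.217, limma adjusted p = 0.00021). That of the mean of the REV strains from SIM1 was -1.49 (SE 0.23, limma adjusted p = 0.00145).

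FBtr0083430, at rank 68, followed. Its REC females measured 12.95, 12.96 and 12.81, against 11.08, 11.37 and 11.15 in REV2, 11.48, 11.55 and 10.96 in REV1 and 12.29, 12.33 and 12.13 in SIM1. The INV2 females measured 11.82, 12.23 and 12.39, and the INV1 females 12.18, 12.09 and 12.61. REC was highest without overlap, INV2, INV1 and SIM1 shared a middle level, and the REV strains were lowest without overlap. REC exceeded the white-eyed strains by 1.31 (SE 0.135, limma adjusted p = 3.36e-05). The same arrangement was found in FBtr0273329, which differed by 1.03 (SE 0.118, limma adjusted p = 9.36e-05). In FBtr0072883 REC exceeded the white-eyed strains by 1.21 (SE 0.122, limma adjusted p = 2.82e-05), with INV2 and INV1 between REC and SIM1. In FBtr0076984 it exceeded them by 0.98 (SE 0.118, limma adjusted p = 0.000133). These 5 transcripts had the lowest p of the F-test among the 200.

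**Figure D3:**
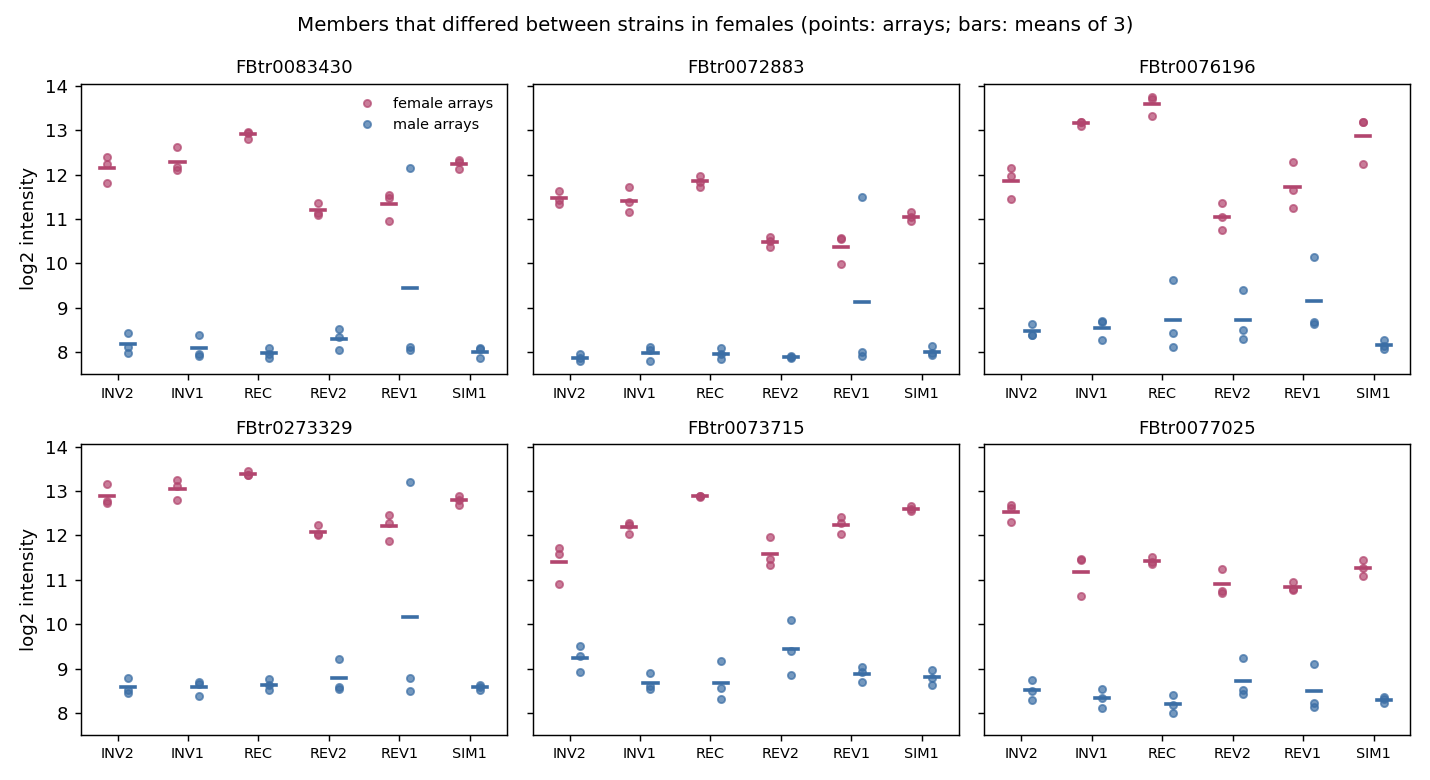
Log2 intensity of 6 of the 200 transcripts by strain, with female arrays as red points, male arrays as blue points and bars at the mean of 3 arrays. In FBtr0083430, FBtr0072883 and FBtr0273329 the REC females are the highest and the REV females the lowest, and one REV1 male array lies near the female level. FBtr0077025 is highest in INV2 females.

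The lower transcripts moved little. FBtr0074596 measured 10.56, 10.57 and 10.67 in REC females, against 11.20, 11.04 and 10.87 in REV2, 10.98, 11.08 and 11.04 in REV1 and 10.54, 10.83 and 10.85 in SIM1. Its difference was -0.34 (SE 0.0713, limma adjusted p = 0.0069), with REC overlapping SIM1. FBtr0072237 measured 11.52, 11.68 and 11.70 in REC, against 11.99, 11.85 and 12.10 in REV2, 11.85, 12.07 and 11.94 in REV1 and 11.84, 11.83 and 11.91 in SIM1. Here REC lay below every white-eyed array, by 0.30 on average (log2 difference -0.30, SE 0.0628, limma adjusted p = 0.00684).

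The 19 transcripts higher in REC than in white-eyed females were followed over the other strains, as a description of a group that the call itself defined. For each female array the median deviation of the transcripts from their own medians over the female arrays was taken. It lay between 0.55 and 0.65 on the REC arrays, between -0.18 and 0.18 on those of INV2, between 0.01 and 0.08 on those of INV1, and between -0.01 and 0.10 on those of SIM1. It was lowest on the arrays of REV2 (-0.77 to -0.40) and REV1 (-0.80 to -0.31). The white-eyed strains were thus not alike in these transcripts, with SIM1 at the level of the INV strains. In the other 181 transcripts the median deviation lay between -0.11 and -0.04 on REC arrays and between 0.03 and 0.11 on REV2 arrays.

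Most of the transcripts raised far on male array REV1 A were among those higher in REC females. Of the 14 transcripts with an excess above 25% on that array, 12 (85.7%) were among the 19 higher in REC females, which is 63.2% of the 19. The excess had a median of 28.5% in the 19 (0.27% to 136%) and 7.77% in the other 181 (0.73% to 26.5%). Over the 200 transcripts, which share the same arrays, the excess correlated with the REC minus white-eyed difference of the females at r = 0.59 and rho = 0.38. Both measures draw on the female arrays, since the excess is scaled by the female median. With the excess taken from male arrays alone, as the log2 difference of REV1 A from the other males, the values were r = 0.58 and rho = 0.29. The link was noticed in the data, and its source was not tested.

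**Figure D4:**
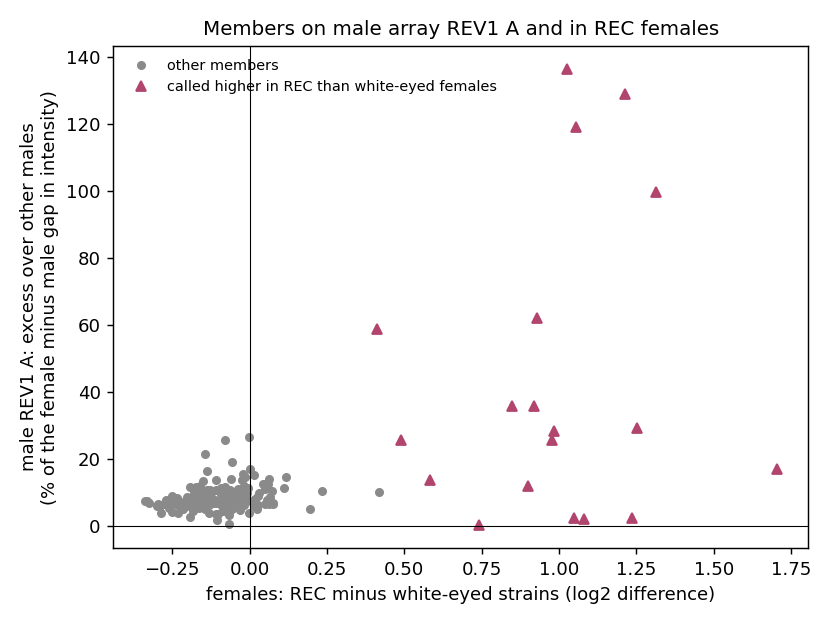
Excess of male array REV1 A over the other males, as a percentage of the female minus male distance in intensity (vertical axis), against the REC minus white-eyed log2 difference in females (horizontal axis), for the 200 transcripts. Triangles mark the 19 transcripts called higher in REC females and circles the other 181, most of which lie near the median excess of 7.77%.

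The strains that share a state of the region were compared next. INV2 was higher than INV1 in 1 of the 200 transcripts in females and lower in 0, where 0.0601% of all transcripts were called higher and 0.102% lower. At an unadjusted p under 0.05 there were 36 of the 200, against 17.9% of all transcripts. The called transcript, FBtr0077025, measured 12.31, 12.68 and 12.61 in INV2, against 10.63, 11.44 and 11.47 in INV1. It measured 11.53, 11.35 and 11.40 in REC, 10.74, 11.25 and 10.71 in REV2, 10.96, 10.80 and 10.78 in REV1, and 11.27, 11.45 and 11.09 in SIM1. INV2 stood above all other strains without overlap, whereas INV1 lay among them. The difference was 1.35 (SE 0.188, limma adjusted p = 0.00209). The count was 0 without INV2 B or INV2 C and 2 without SIM1 C, given here without the share of all transcripts.

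Between REV2 and REV1 females 0 of the 200 transcripts were called by limma, against 0.00601% of all, with a smallest adjusted p of 0.152. At an unadjusted p under 0.05 there were 18 of 200, against 9.94% of all transcripts. The mean of the REV strains minus SIM1 was called in more of them, higher in 3 (0.926% of all transcripts) and lower in 8 (1.97%), although all 3 strains hold the region intact and have white eyes. The lower group included FBtr0076196, given above, and FBtr0070645, which measured 11.88, 12.10 and 11.67 in REV2 and 11.85, 11.99 and 11.24 in REV1, against 12.81, 12.97 and 12.62 in SIM1. The strains did not overlap, and the difference was -1.01 (SE 0.175, limma adjusted p = 0.0029). The higher ones were smaller, with FBtr0290281 at 0.59 (SE 0.124, limma adjusted p = 0.00847) and FBtr0076689 at 0.36 (SE 0.0604, limma adjusted p = 0.00244). The median over the 200 was 0.09. This count depended on single arrays, with 0 called without SIM1 A, 1 without SIM1 B, 7 without REV2 C and 21 without REV2 B. Shares of all transcripts with these arrays left out are not given, and the changes are not read as particular to the 200.

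The disruption of the region was addressed by the mean of the INV strains minus REC, all of them red-eyed. REC also differs from the INV strains in carrying the P-elements unrearranged and in not having had the heat shocks. This contrast therefore does not isolate the disruption. In females 1 of the 200 transcripts was higher in the INV strains (0.487% of all transcripts) and 3 were lower (1.27%). FBtr0073715 had the largest negative difference. It measured 10.91, 11.71 and 11.58 in INV2 and 12.03, 12.24 and 12.29 in INV1, against 12.89, 12.89 and 12.87 in REC. Both INV strains lay below REC, INV2 by more than INV1. The difference was -1.09 (SE 0.153, limma adjusted p = 0.000959). FBtr0071145 measured 11.33, 11.85 and 12.18 in INV2 and 11.85, 11.63 and 11.98 in INV1, against 12.88, 12.68 and 12.53 in REC (log2 difference -0.89, SE 0.177, limma adjusted p = 0.00793). The higher one, FBtr0078241, measured 12.03, 12.12 and 12.05 in INV2 and 11.85, 11.90 and 11.96 in INV1, against 11.59, 11.62 and 11.74 in REC (0.33, SE 0.0621, limma adjusted p = 0.00561). The INV and REC groups did not overlap in any of the 3. The white-eyed strains, which hold the region intact, did not all lie with REC. In FBtr0073715 every white-eyed array lay below REC, from 11.32 in REV2 to 12.66 in SIM1. In FBtr0071145 they also lay below REC, from 10.82 in REV1 to 12.14 in SIM1. In FBtr0078241 the REV arrays (11.92 to 12.10) lay at the INV level, and SIM1 (11.57, 11.62 and 11.84) lay nearer REC. The median over the 200 was 0.06. The count of 4 was 0 without REC B and 1 without REC A, REC C, INV1 B or INV2 B. It was 2 without INV1 A, INV1 C or INV2 A, 7 without REV2 C and 9 without REV2 B. As the share of all transcripts is not given for these settings, the changes are not read as particular to the 200.

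The INV strains were also set against the white-eyed strains, a comparison in which eye colour and the inversion change together. In females 7 of the 200 were higher in the INV strains (2.79% of all transcripts) and 2 lower (1.6%). FBtr0077025 was higher by 0.85 (SE 0.122, limma adjusted p = 0.000371) and, by the values above, INV2 lay far from the white-eyed strains and INV1 close to them. FBtr0072883 measured 11.34, 11.43 and 11.63 in INV2 and 11.37, 11.16 and 11.71 in INV1, against 10.51, 10.38 and 10.59 in REV2, 10.54, 10.58 and 9.98 in REV1 and 11.04, 11.15 and 10.96 in SIM1. Both INV strains lay above all white-eyed arrays, by 0.81 on average (SE 0.0965, limma adjusted p = 8.29e-05). The lower ones were FBtr0073839, with a difference of -0.51 (SE 0.0939, limma adjusted p = 0.00266), and FBtr0088482, with -0.25 (SE 0.0499, limma adjusted p = 0.00389). The median over the 200 was -0.01.

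In males no strain difference was called in these transcripts. The F-test of limma called 0 of 200 (0.0781% of all transcripts), with a smallest adjusted p of 0.138 and 16 at an unadjusted p under 0.05 (8%, against 19.6% of all). The 6 planned contrasts called 0 of 200 (0.0962% of all in any contrast), and 82 had an unadjusted p under 0.05 in at least 1 (41%, against 46% of all). The median residual SD of the 200 in males was 0.277, against 0.206 for all transcripts. Without REV1 A it was 0.188, the F-test called 0 (0.0481% of all), and 21 had an unadjusted p under 0.05 (10.5%, against 17.2% of all). This spread remained larger than the 0.109 found in females, so the same difference was harder to detect in males. The REV2 minus REV1 difference in males had a median of -0.36. It was below 0 in 184 of the 200 (92%, against 52.4% of all transcripts). In the 50 ranked above 98% were below 0, and in the 200 ranked below 85%. REV1 A is 1 of the 3 arrays of REV1.

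Whether the female minus male difference depended on the strain was tested by the interaction in one fit of all arrays. Of the 200 transcripts 7 were called (3.5%, against a background of 1.5%), and 72 had an unadjusted p under 0.05 (36%, against 28% of all). All 7 were among the transcripts called between strains in females, and 0 were called in males. Without male array REV1 A 16 were called (8%, against 1.6% of all). Without female REV2 B 11 were called. The count was 2 without female REV2 A, 3 without female INV2 A, REC A, REC B, REC C or REV1 C or male INV2 A, INV2 B, INV2 C or REC C, and 4 without female INV1 A, INV2 C, REV1 A, REV1 B, REV2 C or SIM1 A or male REV2 C. The size of this group is therefore not well determined. Except for REV1 A, the share of all transcripts is not given for these left-out arrays. Nothing particular to the 200 is read from the changes.

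FBtr0073715 had the lowest p of the interaction (limma adjusted p = 0.000959). Its female minus male difference was 2.15 in INV2, 3.50 in INV1, 4.20 in REC, 2.13 in REV2, 3.36 in REV1 and 3.80 in SIM1. The males measured 9.29, 8.91 and 9.52 in INV2, 8.54, 8.61 and 8.89 in INV1, 9.18, 8.32 and 8.55 in REC, 9.40, 8.86 and 10.10 in REV2, 8.93, 9.04 and 8.69 in REV1, and 8.97, 8.79 and 8.64 in SIM1. The strains with the lowest females, INV2 and REV2, thus had the highest male means. In FBtr0076196 (limma adjusted p = 0.0038) the difference was 3.39 in INV2, 4.60 in INV1, 4.87 in REC, 2.32 in REV2, 2.58 in REV1 and 4.72 in SIM1. In FBtr0076571 (limma adjusted p = 0.00387) it was 3.77, 4.29, 4.43, 2.95, 3.09 and 3.82 in the same order of strains. In each of the 3 transcripts REC had the largest sex difference and REV2 the smallest.

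Some of the 200 had consecutive identifiers, which may stand for transcripts of one gene that share probes. There were 9 such pairs, with 18 transcripts. Over the 18 female arrays the deviations of a pair correlated with a median r of 0.61 (-0.18 to 0.99), against 0.10 for all pairs of the 200. Counts of transcripts may therefore exceed counts of genes.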

How the data were processed

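RNA of whole flies was hybridized in one colour by the array service. By the authors' methods, log values of a transcript's probes were summarized as their median, and arrays were scale-normalized with limma. Background correction is not given in the sources used here. The deposited values are linear fluorescence intensities for 16637 transcripts on 36 arrays. Within a sex the sorted values of the arrays differed by at most 0.976% in females and 1.15% in males at any rank, and the median intensity was 1339 in females and 1979 in males. Sorted values this alike would not result from the scale method by itself, so the normalization of the deposited table is not settled, and the size of the sex differences rests on it.

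The intensities were converted to log2. Strains were compared with limma 3.58.1 in R 4.3.3 (lmFit, eBayes), each sex fitted alone with one mean per strain, by the moderated F-test and 6 planned contrasts, and the dependence of the sex difference on strain in one fit of all arrays. Adjusted p are Benjamini-Hochberg values over all transcripts. The fits were tested on simulated data. The number of arrays limits the precision.

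The transcripts, the lists and the tests were chosen with earlier results of these data known. Transcripts named are those at the ends of the ranking, the 2 brightest and 2 dimmest in females, the 5 with the lowest F-test p in females, the 3 with the lowest interaction p, up to 2 per direction in each contrast, and those with a gene name. Those given for male array REV1 A were picked from these after their values were seen. Gene names came from a RefSeq table of assembly Release 6 plus ISO1 MT (44 of all identifiers found, 0.264%), and no coordinates are given because the arrays follow another release. Lists of markers of ovary, testis and accessory gland, written by gene name, could not be applied. Alternatives were other normalizations, a filter on dim transcripts, an intensity trend, a replicate block, array weights, an adjusted p under 0.05, the methods' one-way comparison, one fit of all arrays and leaving out each array. Male results without REV1 A, and without 4 male arrays that deviated alike (INV1 A, INV1 B, REC B and SIM1 C), were added after seeing the data.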

Additional observations from a re-analysis of the deposited data

Results flagged for a closer look

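The female minus male difference was called as dependent on the strain, by the interaction test of limma, in 7 of the 200 transcripts. This was 3.5%, against 1.5% of all transcripts. With 1 array left out the count ran from 2 to 16, given here without the share of all transcripts. Without the 4 male arrays that deviated alike it was 5 (2.5%, against 5.94% of all). The adjusted p was 0.000959 for FBtr0073715, 0.0038 for FBtr0076196 and 0.00387 for FBtr0076571. FBtr0073715 and FBtr0076571 kept an adjusted p under 0.01 under 44 of 44 other settings, and FBtr0076196 under 43 of 44, with a highest value of 0.0103.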

How the results depend on the processing

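Of the counts under the other settings, 97 stayed within 1.5 times the value reported and 23 moved beyond. A count of 0 that stayed 0 was taken as within, as in most male tests and for REV2 minus REV1 in females. The 97 therefore overstate how stable the non-zero counts were. Settings that left out single arrays are not among these values and are given below. No direction was reversed. For the settings that follow, the share of all transcripts called under the same setting is given in parentheses. With array weights estimated from the data, female calls were 72 by the F-test (28.6%), 3 for INV2 minus INV1 (2.53%), 27 for REV minus SIM1 (9.86%), 32 for INV minus REC (9.89%), 45 for REC minus white-eyed (11.7%) and 17 for INV minus white-eyed (6.77%). In males they were 21 by the F-test (47.1%), 21 for INV2 minus INV1 (41%) and 4 for INV minus white-eyed (15.1%), and for the interaction 65 (49.6%). The cause was not tested. At an adjusted p under 0.05 the female counts were 68 by the F-test (25%), 3 for INV2 minus INV1 (1.24%), 35 for REV minus SIM1 (9.95%), 26 for INV minus REC (8.4%), 43 for REC minus white-eyed (11.8%) and 22 for INV minus white-eyed (11.8%), and the interaction gave 22 (9.47%). For INV minus REC in females, quantile normalization gave 7 (1.37%) and leaving out the dimmest 25% of transcripts gave 7 (2.23%). The methods' one-way comparison called 15 in females (3.97%). One fit of all arrays, in which the spread of males enters the tests of females, called 8 in females (3.26%) and 1 in males (7.83%). Leaving out the 4 male arrays that deviated alike gave 5 interaction calls and 0 calls in males.

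With the replicate letter as a block, 28 transcripts were called between strains in females, 0 in males and 4 by the interaction, against 27, 0 and 7. The shares of all transcripts with the block were 9.9%, 0.0541% and 0.95%. The letters gave no sign of pairing the samples. Deviations from the strain mean correlated between arrays of one letter with a median r of -0.02 in females and -0.02 in males, and 7 of 18 female and 8 of 18 male arrays correlated best with their own letter.

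Leaving out single arrays, the female F-test called 19 to 39, REC minus white-eyed 10 to 25, INV minus white-eyed 6 to 12, INV minus REC 0 to 9, REV minus SIM1 0 to 21, INV2 minus INV1 0 to 2 and REV2 minus REV1 0, the interaction 2 to 16, and every male test 0. These counts are given without the share of all transcripts, and nothing particular to the 200 is read from them. Of the 200 transcripts, 196 to 200 stayed in the selection with 1 array left out. With means in place of medians 190 stayed, after scale normalization 190, and after quantile normalization 184.

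Among the transcripts named, the 5 with the lowest F-test p stayed past the threshold under 25 of 25 settings. Others were less firm. FBtr0290281 passed under 13 of 25, FBtr0074596 and FBtr0071145 under 15 and FBtr0072237 under 16.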
